A study of Homo sapiens with 6 samples.

Results

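THP-1 cells transfected with a miR-130a-3p mimic were compared with THP-1 cells transfected with a negative control mimic (mimic NC). The comparison rests on 2 of the 6 arrays of the series, 1 for each transfection, and takes in all 21448 probe sets of the deposited table. THP-1 is an established human leukaemia line of the monocytic lineage. All cultures were first held for 2 days in medium with 100 ng/ml of the phorbol ester PMA, which gives THP-1 cells features of macrophages, and were then transfected for 24 h with the lipid reagent RNAiMAX. The miR-130a-3p mimic was the agent of the first array, and mimic NC, titled "NC 2" without a reason for the number, that of the second. The other 4 arrays, from cells given the mimic of miR-151a-3p, miR-146a-5p, let-7e-5p or let-7d-3p, were used to see whether a level with miR-130a-3p lay outside that of other transfected cells. The groups come from the sample titles. The treatment label of every sample names the let-7a-5p mimic, and so does not tell the arrays apart.

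Each array reports the total RNA of 1 culture as log2 signals, where a difference of 1 is a 2-fold difference. With 1 array per mimic no difference could be held against the spread between replicates. No gene was tested, no p-value is given, and the number of arrays limits the precision. A signal was called above background where it exceeded 5.39, which 95% of the values of 348 probe sets of olfactory receptors did not reach. Median signals ran between 6.92 and 6.95 on the 6 arrays, and 13562 to 13849 probe sets per array were above background. Macrophage markers were present, with 20 of 22 above background with the miR-130a-3p mimic and 20 of 22 with mimic NC. Of all 17687 genes 11499 were above it with the miR-130a-3p mimic and 11536 with mimic NC. CD68, a lysosomal marker of macrophages, had 15.25 with the miR-130a-3p mimic and 15.39 with mimic NC. One label field describes the cells as lymphocyte-like. Markers of lymphocytes were mixed. The T cell gene CD3D had 3.13 with the miR-130a-3p mimic and 3.33 with mimic NC, and the B cell gene MS4A1 had 4.39 with the miR-130a-3p mimic and 4.36 with mimic NC, none of them above background. Others of the same lists were above it on all 6 arrays. CD3E had 6.09 with the miR-130a-3p mimic and 5.80 with mimic NC, CD79A had 7.27 with the miR-130a-3p mimic and 7.12 with mimic NC, and CD79B had 6.39 with the miR-130a-3p mimic and 6.81 with mimic NC.

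A mature miRNA is loaded into an Argonaute protein, which it guides to mRNAs that pair with its seed, bases 2 to 8 from the 5′ end. TNRC6 proteins then recruit deadenylases, and the mRNA is translated less and decays. The miR-130 family is a group of miRNAs with one seed, known for targets among TGF-beta and BMP receptors, colony-stimulating factor 1 and DICER1. The sequences below, from RefSeq (GRCh38.p14), show the seed of 4 relatives of miR-130a-3p, beside those of the mimics on 3 of the other arrays. Capitals mark the seed. Of 8 mature miRNAs looked for 7 were matched, all but miR-130a-3p. The 4 relatives shared the seed AGUGCAA, whose site in an mRNA reads UUGCACU. miR-130b-3p lies at chr22:21653354-21653375 on the plus strand and miR-301b-3p beside it at chr22:21653025-21653047, also on the plus strand. miR-301a-3p (chr17:59151149-59151171) and miR-454-3p (chr17:59137787-59137809) lie together on the minus strand.
hsa-miR-130b-3p: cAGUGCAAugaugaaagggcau
hsa-miR-301a-3p: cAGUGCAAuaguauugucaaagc
hsa-miR-301b-3p: cAGUGCAAugauauugucaaagc
hsa-miR-454-3p: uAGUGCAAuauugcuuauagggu
hsa-let-7d-3p: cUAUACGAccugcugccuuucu
hsa-let-7e-5p: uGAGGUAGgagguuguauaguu
hsa-miR-146a-5p: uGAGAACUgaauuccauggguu

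The genes that differed most from mimic NC in cells with the miR-130a-3p mimic were few, and many were near background. At 2-fold or more, 131 probe sets (0.611%) were higher and 136 (0.634%) were lower than with mimic NC. Of the 131 that were higher 69 were not above background on either array and 22 on the dimmer one, which left 40 with both arrays above it. Of the 136 that were lower 73 were not above background on either array, 45 on the dimmer one, and 18 were above it on both. At 1.5-fold the counts were 975 higher and 1022 lower, and at 3-fold 2 higher and 4 lower. The other mimics gave counts of the same order at 2-fold. They were 148 higher and 226 lower for miR-151a-3p, 111 higher and 123 lower for miR-146a-5p, 177 higher and 102 lower for let-7d-3p, and 95 higher and 102 lower for let-7e-5p. Among probe sets with both arrays above background the SD of the log2 difference was 0.29 for miR-130a-3p and 0.27 to 0.31 for the other mimics. All of these comparisons share the 1 control array, so a low or high value there enters each of them. Of the 40 probe sets that were 2-fold higher and above background, the miR-130a-3p array was the highest of 6 for 31, and mimic NC the lowest for 30. Of the 18 that were lower, the miR-130a-3p array was the lowest for 17, and mimic NC the highest for 8. These probe sets were chosen by the same 2 arrays, so the counts follow in part from that choice.

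A second measure, the gap between the miR-130a-3p array and the nearest of the other 5, does not rest on mimic NC alone. Among 14667 probe sets above background on any array, 30 were highest with miR-130a-3p by 1.5-fold or more and 38 were lowest. The counts for the other mimics were 55 highest and 105 lowest with miR-151a-3p, 33 and 18 with miR-146a-5p, 94 and 85 with let-7d-3p, and 14 and 22 with let-7e-5p. For mimic NC they were 16 and 26. By 2-fold or more 0 probe sets were highest with miR-130a-3p and 1, that of PDZD11, was lowest.

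**Figure D1:**
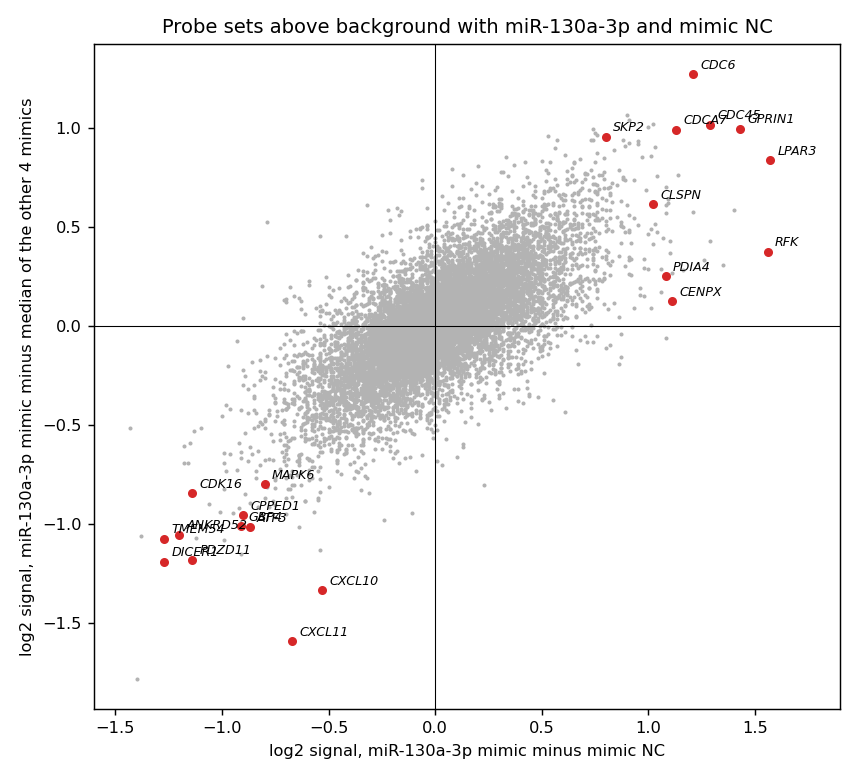
Each grey point is a probe set above background both with the miR-130a-3p mimic and with mimic NC. The x axis gives the log2 signal with the miR-130a-3p mimic minus that with mimic NC, the y axis the same signal minus the median of the other 4 mimics. Named genes are red and were drawn without this filter. GPRIN1 was not above background with mimic NC. CDC6 and DICER1 lie far from 0 on both axes, RFK (1.56 on the x axis) and PDIA4 far from 0 mainly on the x axis, and CXCL11 (-1.59 on the y axis) mainly on the y axis.

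Genes reported in earlier work as direct targets of miR-130a-3p or miR-130b-3p were mostly lower with the miR-130a-3p mimic. Of 28 such genes 23 were lower than with mimic NC and 5 were higher, with a median log2 difference of -0.355, while 49.8% of all genes were lower and the median of all genes was 0. The miR-130a-3p array was the lowest of 6 for 12 of the 28, against 15.7% of all genes, and the highest for 0. For the other mimics the median difference of the same genes from mimic NC was -0.045 with miR-151a-3p, 0.01 with miR-146a-5p, -0.11 with let-7d-3p and 0.025 with let-7e-5p. A signal difference of 1.5-fold or more, counted whether or not the signals were above background, was seen for 3 of the 28 in the lower direction (DICER1, KLF4 and TAC1, the last of them above background on neither array), where 4.69% of all genes had it, and for 0 in the higher direction, where 4.4% had it. In RNA from whole cultures, fewer cells of a type and less RNA per cell cannot be told apart. The list was drawn from general knowledge with earlier results of these data known, so its counts may partly follow from the choice of members. The pairing of its members with the seed was not examined.

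DICER1 encodes the RNase III enzyme that cuts miRNA precursors. Its signal was 8.43 with miR-130a-3p, 10.08 with miR-151a-3p, 9.51 with miR-146a-5p, 8.90 with let-7e-5p, 9.73 with let-7d-3p and 9.70 with mimic NC. It was 2.41-fold lower with miR-130a-3p than with mimic NC, and the array nearest to it was that of let-7e-5p, from a family also known to target DICER1. TAC1, the tachykinin precursor, had 4.0 with miR-130a-3p and 5.13 with mimic NC, neither above background, and so has no fold. KLF4, a transcription factor of monocyte differentiation, had 7.98 with miR-130a-3p, 8.10 to 8.22 with the other mimics and 8.69 with mimic NC. Mimic NC stood apart from all 5 mimics for KLF4, whereas miR-130a-3p was the lowest array by 1.09-fold.

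Receptors and ligands among the reported targets followed. The BMP type I receptor ACVR1 had 8.70 with miR-130a-3p, 9.99 with miR-151a-3p, 9.41 with miR-146a-5p, 9.49 with let-7e-5p, 9.54 with let-7d-3p and 9.20 with mimic NC. This made miR-130a-3p the lowest array by 1.41-fold. The type II receptor BMPR2 had 10.33 with miR-130a-3p, 10.47 to 10.92 with the other mimics and 10.74 with mimic NC. TGFBR2, the type II receptor of TGF-beta, had 12.88 with miR-130a-3p and 13.21 with mimic NC, but let-7e-5p was lower still at 12.76. CSF1, the growth factor of macrophages, had 10 with miR-130a-3p, 10.63 with miR-151a-3p, 10.55 with miR-146a-5p, 11.45 with let-7e-5p, 10.87 with let-7d-3p and 10.44 with mimic NC. It was 1.36-fold lower than with mimic NC and the lowest of 6.

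RAB5A, a GTPase of early endosomes, had 14.13 with miR-130a-3p, 14.53 to 14.77 with the other mimics and 14.70 with mimic NC. FOSL1, an AP-1 subunit, had 11.06 with miR-130a-3p, 11.45 to 11.79 with the other mimics and 11.60 with mimic NC. Both lay below all other arrays, RAB5A by 1.32-fold and FOSL1 by 1.31-fold. The Runt factor RUNX3 had 11.80 with miR-130a-3p, 12.05 to 12.38 with the other mimics and 12.19 with mimic NC, again the lowest of 6. TSC1, a subunit of the complex that restrains mTOR, had 11.12 with miR-130a-3p, 10.98 to 11.60 with the other mimics and 11.66 with mimic NC, so that the miR-151a-3p array was below it. For PPARG, a nuclear receptor of lipid metabolism, the 5 mimics spanned 11.84 to 12.10, with 11.91 for miR-130a-3p, and mimic NC stood above them at 12.30. The other mimics overlapped miR-130a-3p for ABCA1, the exporter of cellular cholesterol, with 12.36 for miR-130a-3p, 12.35 to 12.87 for the other mimics and 12.70 for mimic NC. The 5 members not lower than with mimic NC were XIAP, CDKN1A, DDIT4, MEOX2 and MET, whose log2 differences lay between 0.03 and 0.23. MET, the receptor of hepatocyte growth factor, had 5.77 with miR-130a-3p, 6.20 to 6.62 with the other mimics and 5.54 with mimic NC.

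**Figure D2:**
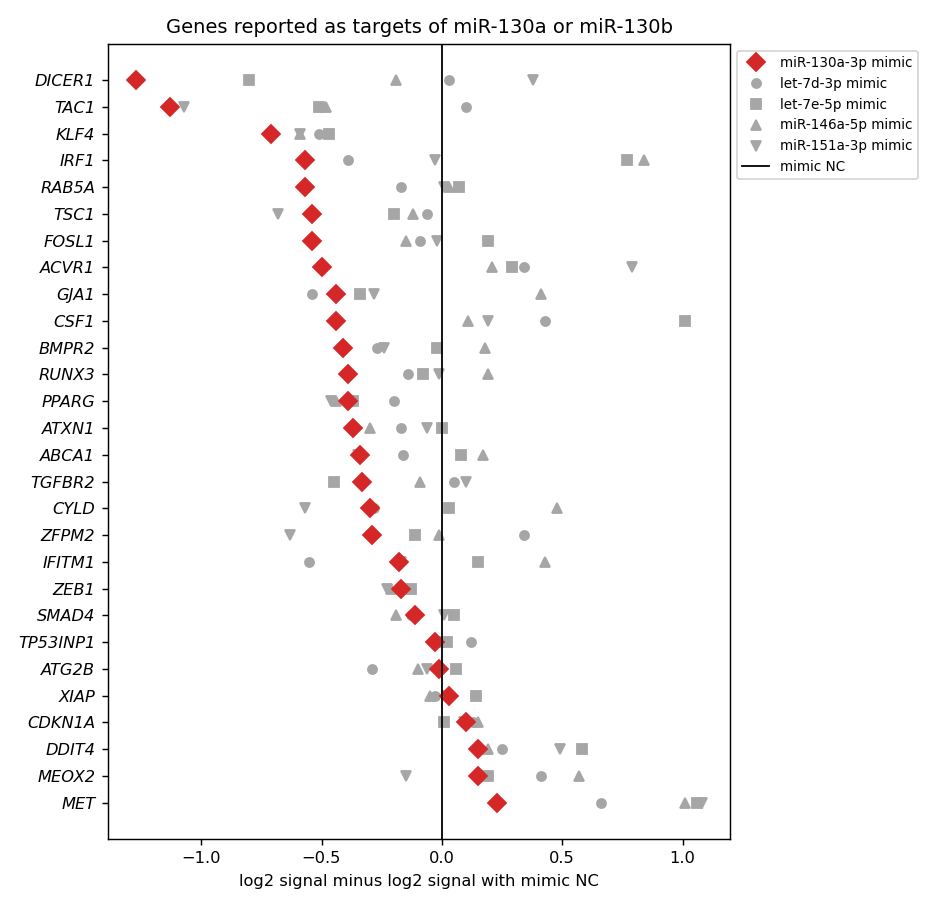
Log2 signal minus that with mimic NC (x axis, vertical line at 0) for the 28 reported targets, ordered by the miR-130a-3p value. Red diamonds are the miR-130a-3p mimic and grey symbols the other 4 mimics, 1 array each. Red diamonds lie left of the line for 23 genes and left of all grey symbols and the line for 12.

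Of 24 genes of the miRNA pathway itself 15 were lower with miR-130a-3p than with mimic NC, where 49.8% of all genes were, 8 were higher and 1 was equal, with a median of -0.12. At 1.5-fold or more 1 was lower, where 4.69% of all genes were. Among the 6 arrays that of miR-130a-3p was the lowest for 8 of them, against 15.7% of all genes. TNRC6B, a scaffold that links Argonaute to deadenylases, had 10.40 with miR-130a-3p, 11.25 with miR-151a-3p, 11.12 with miR-146a-5p, 10.56 with let-7e-5p, 10.83 with let-7d-3p and 10.96 with mimic NC. AGO4, an Argonaute protein, had 8.11 with miR-130a-3p, 8.70 to 9.05 with the other mimics and 8.65 with mimic NC, a gap of 1.45-fold to the nearest array. DDX6, a helicase of mRNA decay, had 13.39 with miR-130a-3p, 13.49 to 13.67 with the other mimics and 13.64 with mimic NC. AGO2, the slicing Argonaute, had 13.25 with miR-130a-3p, 12.93 to 13.44 with the other mimics and 13.41 with mimic NC, within the range of the other arrays. The highest member was TARBP2, a partner of DICER1, with 5.68 with miR-130a-3p, 4.69 to 5.93 with the other mimics and 4.71 with mimic NC. Since mimic NC was not above background, the difference is given as at least 1.22-fold. ANKRD52, a subunit of the phosphatase PP6 known to act on phosphorylated AGO2, is not on the list and was picked after its values were seen. It had 9.02 with miR-130a-3p, 9.67 to 10.53 with the other mimics and 10.22 with mimic NC, 2.30-fold lower than with mimic NC and the lowest of 6.

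Genes that start DNA replication were higher with the miR-130a-3p mimic. Before S phase the origin recognition complex, CDC6 and CDT1 load the MCM2 to MCM7 helicase onto origins, and CDC7, CDC45 and the GINS complex then switch it on. Of 31 genes of origin licensing and the helicase 29 were higher than with mimic NC, where 48.8% of all genes were, and the median difference was 0.44. At 1.5-fold or more 13 were higher, where 4.4% of all genes were, and 0 lower. The miR-130a-3p array was the highest of 6 for 23 of the 31, against 16.6% of all genes, and the lowest for 0. All 31 were higher than the median of the other 4 mimics, where 49.6% of all genes were, by a median of 0.38. The other mimics differed from mimic NC by a median of -0.07 with miR-151a-3p, 0 with miR-146a-5p, -0.03 with let-7d-3p and 0.28 with let-7e-5p. With let-7e-5p 25 of the 31 were higher than with mimic NC, where 48.6% of all genes were. The miR-130a-3p array was above that of let-7e-5p for 27 of the 31, where 49.9% of all genes were, by a median of 0.21.

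CDC6 had 11.24 with miR-130a-3p, 9.91 with miR-151a-3p, 10.03 with miR-146a-5p, 10.39 with let-7e-5p, 9.88 with let-7d-3p and 10.03 with mimic NC. It was 2.31-fold higher than with mimic NC and 1.80-fold above the nearest array. CDC45 had 9.17 with miR-130a-3p, 8.18 with miR-151a-3p, 8.13 with miR-146a-5p, 8.47 with let-7e-5p, 8.0 with let-7d-3p and 7.88 with mimic NC, a 2.45-fold difference from mimic NC. For both genes the order was the same at the top, with let-7e-5p second. MCM10, which helps to activate the helicase, had 6.13 with miR-130a-3p and 4.5 to 5.33 with the other mimics, which like mimic NC at 4.97 were not above background. The difference from mimic NC was at least 1.67-fold. CLSPN, claspin, which travels with the fork and serves the checkpoint kinase CHEK1, had 9.86 with miR-130a-3p, 8.93 to 9.51 with the other mimics and 8.84 with mimic NC. WDHD1, which couples the helicase to polymerase alpha, had 8.83 with miR-130a-3p, 8.10 to 8.50 with the other mimics and 7.84 with mimic NC. The differences of these 2 from mimic NC were 2.03-fold and 1.99-fold, and mimic NC was the lowest array for both.

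All 6 subunits of the MCM2 to MCM7 helicase were higher than with mimic NC, with a median of 0.625. MCM3 had 10.96 with miR-130a-3p, 9.87 with miR-151a-3p, 10.46 with miR-146a-5p, 10.59 with let-7e-5p, 10.34 with let-7d-3p and 10.21 with mimic NC. MCM2 had 9.43 with miR-130a-3p, 8.55 to 8.90 with the other mimics and 8.71 with mimic NC, and MCM4 had 12.39 with miR-130a-3p, 11.61 to 12.06 with the other mimics and 11.78 with mimic NC. The least difference was that of MCM7, with 11.00 with miR-130a-3p, 10.71 to 11.19 with the other mimics and 10.75 with mimic NC, where let-7e-5p was above miR-130a-3p. The 4 GINS subunits were higher by a median of 0.395. Of these GINS1 had 10.66 with miR-130a-3p, 9.66 to 10.23 with the other mimics and 9.80 with mimic NC. The origin recognition complex differed least, with 4 of 6 subunits higher and a median of 0.16. ORC1, its subunit with cell cycle-dependent expression, had 10.51 with miR-130a-3p, 9.93 to 10.12 with the other mimics and 10.07 with mimic NC. ORC4 and ORC5 were the only members of the list below mimic NC, with log2 differences of -0.07 and -0.04. GMNN, geminin, the inhibitor of CDT1, had 7.98 with miR-130a-3p, 6.6 to 7.61 with the other mimics and 7.23 with mimic NC. CDT1 itself was at least 1.26-fold higher, with 5.73 with miR-130a-3p, 4.46 to 5.96 with the other mimics and 5.20 with mimic NC, and was inside the range of the other mimics.

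**Figure D3:**
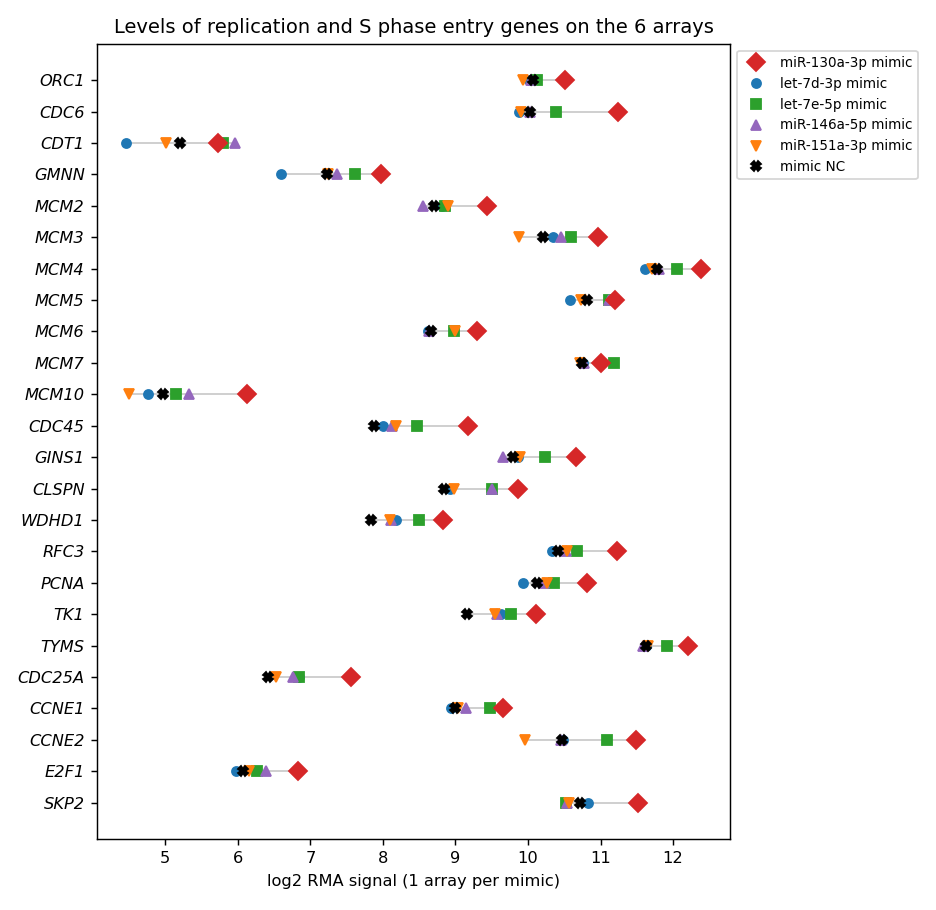
Log2 signals (x axis) of 24 genes of origin licensing, the fork, nucleotide supply and S phase entry, with 1 point per array. Red diamonds are the miR-130a-3p mimic and black crosses mimic NC. The diamond is the rightmost point for all genes shown except CDT1 and MCM7.

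Of 30 genes of the replication fork 25 were higher than with mimic NC, where 48.8% of all genes were, and 5 lower, with a median of 0.355. At 1.5-fold or more 3 were higher, where 4.4% of all genes were, and 0 lower. The miR-130a-3p array was the highest of 6 for 17, against 16.6% of all genes. With let-7e-5p 22 of the 30 were higher than with mimic NC (median 0.20) and with miR-146a-5p 19 (median 0.07). With miR-151a-3p 13 were higher and with let-7d-3p 9. PCNA, the sliding clamp, had 10.81 with miR-130a-3p, 10.26 with miR-151a-3p, 10.22 with miR-146a-5p, 10.36 with let-7e-5p, 9.93 with let-7d-3p and 10.12 with mimic NC. RFC3, a subunit of the clamp loader, had 11.23 with miR-130a-3p, 10.33 to 10.68 with the other mimics and 10.42 with mimic NC. All 5 subunits of the loader were higher than with mimic NC, with a median of 0.4. UHRF1, which brings the maintenance methyltransferase to new DNA, had 9.83 with miR-130a-3p, 8.95 to 9.59 with the other mimics and 9.23 with mimic NC. The methyltransferase gene DNMT1 differed little, with 10.40 with miR-130a-3p, 10.35 to 10.48 with the other mimics and 10.41 with mimic NC. The lowest members were the small polymerase subunits POLD4, with 10.07 with miR-130a-3p and 10.36 with mimic NC, and POLE4, with 11.16 with miR-130a-3p and 11.39 with mimic NC.

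Of 20 genes of nucleotide supply 15 were higher than with mimic NC, where 48.8% of all genes were, and 5 were lower (median 0.285). TK1, the thymidine kinase of S phase cells, had 10.11 with miR-130a-3p, 9.55 to 9.77 with the other mimics and 9.16 with mimic NC, 1.93-fold above mimic NC, which was the lowest array. DUT, which removes dUTP, had 11.48 with miR-130a-3p, 10.99 to 11.31 with the other mimics and 10.80 with mimic NC. TYMS, which makes dTMP, had 12.20 with miR-130a-3p, 11.59 to 11.92 with the other mimics and 11.63 with mimic NC. The ribonucleotide reductase subunit RRM2 had 11.16 with miR-130a-3p, 10.29 to 10.90 with the other mimics and 10.80 with mimic NC. Among the 6 arrays that of miR-130a-3p was the highest for 11 of the 20 genes, against 16.6% of all genes.

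Entry into S phase is driven by E2F factors, which are freed from RB1 when cyclin-dependent kinases phosphorylate it. Of 25 genes of this control 19 were higher, where 48.8% of all genes were, 5 lower and 1 equal, with a median of 0.22. By 1.5-fold or more 5 were higher, where 4.4% of all genes were. CDC25A, the phosphatase that activates CDK2, had 7.56 with miR-130a-3p, 6.52 with miR-151a-3p, 6.76 with miR-146a-5p, 6.84 with let-7e-5p, 6.85 with let-7d-3p and 6.42 with mimic NC. SKP2, the ubiquitin ligase subunit that marks p27 for degradation, had 11.51 with miR-130a-3p, 10.57 with miR-151a-3p, 10.54 with miR-146a-5p, 10.52 with let-7e-5p, 10.83 with let-7d-3p and 10.71 with mimic NC. For SKP2 the other 5 arrays lay within 0.31 of each other and miR-130a-3p stood 1.60-fold above the nearest of them. The cyclin CCNE1 had 9.65 with miR-130a-3p, 8.94 to 9.47 with the other mimics and 8.99 with mimic NC, and CCNE2 had 11.49 with miR-130a-3p, 9.96 to 11.09 with the other mimics and 10.47 with mimic NC. E2F1 had 6.83 with miR-130a-3p, 5.98 to 6.39 with the other mimics and 6.07 with mimic NC. E2F6, a repressive member of the family, went the other way, with 7.59 with miR-130a-3p, 7.68 to 8.06 with the other mimics and 8.09 with mimic NC. The kinases and D-type cyclins of early G1 had no common direction. CCND2 was the lowest member of the list, with 6.55 with miR-130a-3p, 5.96 to 7.13 with the other mimics and 7.12 with mimic NC. CDK4 had 13.46 with miR-130a-3p and 13.46 with mimic NC, CCND1 had 14.41 with miR-130a-3p and 14.59 with mimic NC, and CCND3 had 13.14 with miR-130a-3p and 12.75 with mimic NC.

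Of 7 genes of CDK inhibitors 3 were higher than with mimic NC, where 48.8% of all genes were, and 4 were lower (median -0.01). CDKN1A, which encodes p21 and is also a reported target, had 15.20 with miR-130a-3p, 15.11 to 15.25 with the other mimics and 15.10 with mimic NC. CDKN1B, which encodes p27, had 7.49 with miR-130a-3p, 7.5 to 8.28 with the other mimics and 7.73 with mimic NC. It was the only one of the 7 for which miR-130a-3p was the lowest array, by 1.01-fold.

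Genes of G2 and mitosis were higher to a similar extent. Of 46 members 42 were higher than with mimic NC, where 48.8% of all genes were, and 4 were lower (median 0.35). At 1.5-fold or more 14 were higher, where 4.4% of all genes were, and 0 lower. The miR-130a-3p array was the highest of 6 for 27, against 16.6% of all genes. With let-7e-5p 32 of the 46 were higher than with mimic NC (median 0.13). With miR-146a-5p 25 were higher, with miR-151a-3p 25 and with let-7d-3p 17. TOP2A, the topoisomerase that untangles chromosomes, had 11.86 with miR-130a-3p, 11.29 to 11.53 with the other mimics and 11.06 with mimic NC. HMMR, a spindle protein, had 8.49 with miR-130a-3p, 7.72 to 8.04 with the other mimics and 7.67 with mimic NC. CDC25B, a phosphatase that activates CDK1, had 7.94 with miR-130a-3p, 7.18 to 7.56 with the other mimics and 7.12 with mimic NC. The 4 members below mimic NC were PTTG1, UBE2C, AURKB and CDC20. PTTG1, securin, had 7.91 with miR-130a-3p, 7.71 to 8.29 with the other mimics and 8.37 with mimic NC, UBE2C had 6.44 with miR-130a-3p, 6.6 to 6.74 with the other mimics and 6.67 with mimic NC, and CDC20 had 12.28 with miR-130a-3p, 12.25 to 12.56 with the other mimics and 12.47 with mimic NC. AURKB, a mitotic kinase, had 5.72 with miR-130a-3p, 5.28 to 5.82 with the other mimics and 5.95 with mimic NC. FBXO5, the inhibitor of the anaphase-promoting complex, which is not on the list, had 9.42 with miR-130a-3p, 8.37 to 9.14 with the other mimics and 8.21 with mimic NC, 2.31-fold higher than with mimic NC.

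Of 22 genes of repair coupled to replication 18 were higher than with mimic NC, where 48.8% of all genes were, and 4 were lower (median 0.28), and 7 were higher by 1.5-fold or more, where 4.4% of all genes were. With let-7e-5p 19 of the 22 were higher than with mimic NC (median 0.17), so a high count was not seen with miR-130a-3p alone. Against the median of the other 4 mimics 15 of the 22 were higher with miR-130a-3p. Among the 6 arrays that of miR-130a-3p was the highest for 9 and the lowest for 2. CHEK1, the checkpoint kinase of stalled forks, had 10.90 with miR-130a-3p, 10.21 with miR-151a-3p, 9.82 with miR-146a-5p, 10.31 with let-7e-5p, 9.90 with let-7d-3p and 10.11 with mimic NC. BRCA1, a factor of homologous recombination, had 9.49 with miR-130a-3p, 8.58 to 9.15 with the other mimics and 8.73 with mimic NC. XRCC2, also of homologous recombination and picked after its values were seen, had 9.81 with miR-130a-3p, 8.54 to 9.22 with the other mimics and 9.08 with mimic NC. FANCG, of the Fanconi anaemia core complex, had 6.12 with miR-130a-3p and 4.93 with mimic NC, a difference of at least 1.66-fold, but also 6.12 with let-7e-5p. Lower members were the damage kinase ATM, with 11.78 with miR-130a-3p, 12.00 to 12.24 with the other mimics and 12.03 with mimic NC, and BARD1, the partner of BRCA1, with 8.64 with miR-130a-3p, 8.21 to 9.60 with the other mimics and 8.85 with mimic NC.

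**Figure D4:**
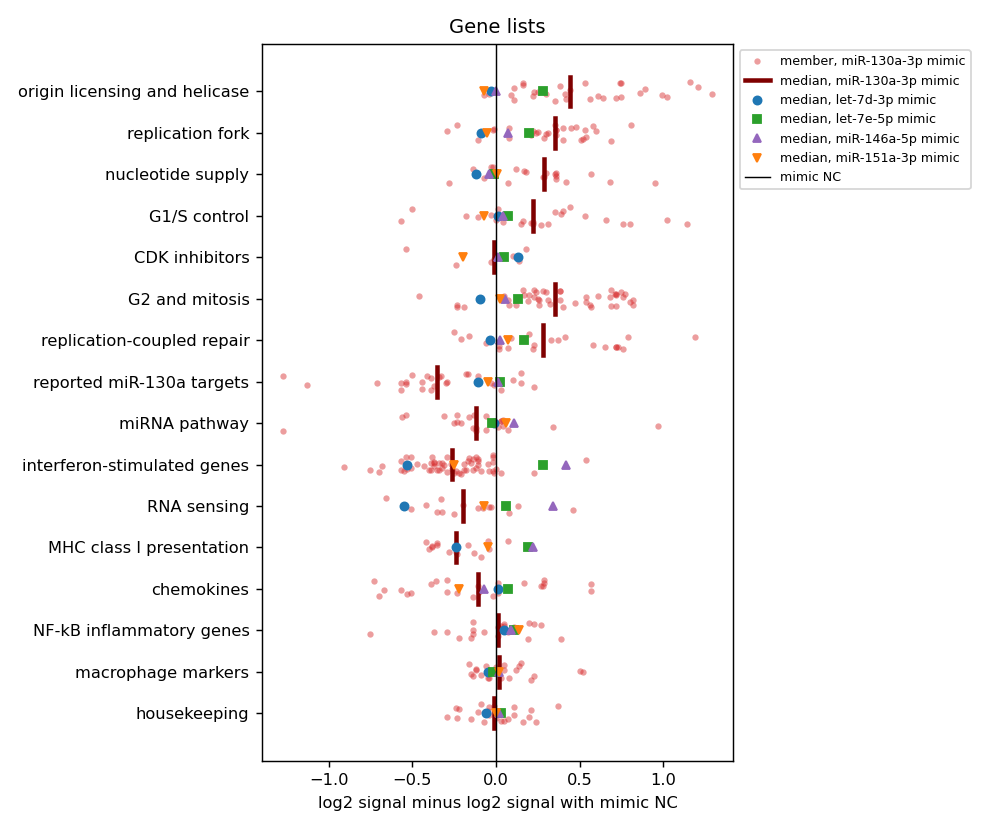
Log2 signal minus that with mimic NC (x axis) for the members of 16 gene lists. Red points are members with the miR-130a-3p mimic, dark red bars their medians, and the other symbols the medians of the same genes with the other 4 mimics. The dark red bar stands at 0.44 for origin licensing and at 0.35 for G2 and mitosis, right of the medians of all other mimics, and at -0.355 for the reported targets, left of them. For interferon-stimulated genes it stands at -0.26, with let-7d-3p and miR-151a-3p also left of 0.

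Promoters of these genes were searched for letters known from the cell cycle. RefSeq gave a promoter, 250 bases before to 50 bases after the start, for 14250 of the 17687 genes. The E2F element was taken as TTTCCCGC or TTTGGCGC and the cell cycle homology region (CHR) of late cell cycle genes as TTTGAA, each on either strand. The E2F letters were in 3.07% of all promoters and in 10 of 26 (38.5%) of origin licensing genes, 8 of 26 (30.8%) of replication fork genes and 5 of 18 (27.8%) of the genes of S phase entry. Genes of G2 and mitosis had them in 2 of 40 (5%), but had the CHR letters in 28 of 40 (70%), against 12.0% of all promoters. These shares describe lists chosen by gene function, use no signal of the arrays and say nothing of the mimic. Licensing genes with the E2F letters had a median difference from mimic NC of 0.585, and the 16 without had 0.415. For the replication fork the medians were 0.52 with the letters and 0.295 without, although 6 of the 8 with them and 15 of the 18 without were higher than with mimic NC. For the CHR letters the order was the opposite, with a median of 0.295 for the 28 genes of G2 and mitosis that had them and 0.46 for the 12 without. Over all genes the medians for the E2F letters were 0.06 with and -0.01 without. Among genes at least 1.5-fold higher with miR-130a-3p 28 of 609 (4.60%) had the letters, but outside the 6 cell cycle lists only 14 of 568 (2.46%). A match is a run of letters and not a shown binding site.

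The E2F letters of some genes with values above are shown in capitals within stretches of 28 bases on the strand of the gene (GRCh38.p14). Their spacing from the start and their flanks can so be compared. Only genes with a match are shown. CDC45, MCM10, WDHD1 and SKP2, which were also higher, were searched and had no match. The match in CDC6 (chr17:40287876-40287903, plus strand) began 7 bases after the start and that in GINS1 (chr20:25407668-25407695, plus) 5 bases after it. In CLSPN (chr1:35769966-35769993, minus) it began 5 bases before the start, in E2F1 (chr20:33686388-33686415, minus) 20, in CDC25A (chr3:48188444-48188471, minus) 44, in RFC3 (chr13:33818084-33818111, plus) 55 and in PCNA (chr20:5126664-5126691, minus) 59. MCM3 (chr6:52284899-52284926, minus) had its match farther off, at 174 bases before the start.
CDC6: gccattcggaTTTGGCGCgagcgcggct
GINS1: gctttgttcgGCGCCAAAgcgcggagcg
CLSPN: ctctggctggGCGGGAAAgcaagaacag
E2F1: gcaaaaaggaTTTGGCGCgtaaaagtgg
CDC25A: gtggattccgTTTGGCGCcaactaggaa
RFC3: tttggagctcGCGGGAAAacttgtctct
PCNA: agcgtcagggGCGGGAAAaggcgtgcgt
MCM3: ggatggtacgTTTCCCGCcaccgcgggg

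Genes induced by interferon were lower with the miR-130a-3p mimic, by small amounts. Type I interferon acts on genes with interferon-stimulated response elements (ISRE) in their promoters, and double-stranded RNA in a cell can start it through TLR3, RIGI and IFIH1. Of 59 interferon-stimulated genes 55 were lower than with mimic NC, where 49.8% of all genes were, 3 were higher and 1 was equal. The median was -0.26. At 1.5-fold or more 4 were lower, near the 4.69% of all genes, and 0 higher. The miR-130a-3p array was the lowest of 6 for 5 of the 59, below the 15.7% of all genes. With let-7d-3p the median of the same genes was lower, at -0.53, and with miR-151a-3p it was -0.25, whereas let-7e-5p had 0.28 and miR-146a-5p 0.42. The miR-130a-3p array was above let-7d-3p for 53 of the 59, where 49.3% of all genes were, above miR-151a-3p for 28, where 48% were, above let-7e-5p for 1 and above miR-146a-5p for 0, where 49.9% and 51% were. Mimic NC thus lay between the 2 mimics with the highest medians and the 3 with the lowest, of which miR-130a-3p was one.

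Guanylate-binding proteins are GTPases that attack pathogen vacuoles. Of 7 measured 6 were lower than with mimic NC, where 49.8% of all genes were, with a median of -0.68. With miR-130a-3p 5 of the 7 were above background. The family was not 1 of the 28 gene lists. With let-7d-3p all 7 were lower, with a median of -0.74. GBP4 had 9.93 with miR-130a-3p, 10.43 with miR-151a-3p, 11.93 with miR-146a-5p, 11.45 with let-7e-5p, 9.70 with let-7d-3p and 10.84 with mimic NC. GBP5 had 8.09 with miR-130a-3p, 8.47 with miR-151a-3p, 9.65 with miR-146a-5p, 9.61 with let-7e-5p, 7.85 with let-7d-3p and 8.79 with mimic NC. For both genes miR-130a-3p was the second lowest array after let-7d-3p. GBP3, picked after its values were seen, was the lowest of 6 with 12.32 with miR-130a-3p, 12.41 to 13.51 with the other mimics and 13.00 with mimic NC. The factor IRF1, also reported as a target, had 9.51 with miR-130a-3p, 10.05 with miR-151a-3p, 10.92 with miR-146a-5p, 10.85 with let-7e-5p, 9.69 with let-7d-3p and 10.08 with mimic NC. OASL, a relative of oligoadenylate synthetase, had 11.80 with miR-130a-3p, 11.40 to 13.35 with the other mimics and 12.55 with mimic NC, 1.68-fold lower than with mimic NC. Among members with small differences, MX1, an antiviral GTPase, had 15.61 with miR-130a-3p, 15.15 to 16.20 with the other mimics and 15.63 with mimic NC, and IFI6 had 17.07 with miR-130a-3p, 16.97 to 17.25 with the other mimics and 17.12 with mimic NC. IRF7, the factor that amplifies type I interferon, was the highest member, with 6.84 with miR-130a-3p, 6.10 to 7.23 with the other mimics and 6.30 with mimic NC.

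Most genes of RNA sensing and class I presentation were lower than with mimic NC, as they were with let-7d-3p and miR-151a-3p. With miR-151a-3p 9 of 15 genes of RNA sensing (median -0.07) and 10 of 15 of class I presentation (median -0.05) were lower. With let-7e-5p and miR-146a-5p most of both lists were higher. Of 15 genes of RNA sensing 12 were lower with miR-130a-3p, where 49.8% of all genes were, with a median of -0.20. With let-7d-3p 13 were lower, with a median of -0.55. The median with miR-130a-3p was -0.11 over the 13 genes with both arrays above background. Against the median of the other 4 mimics 9 of the 15 were lower, and the array with miR-130a-3p was the lowest of 6 for 1. TLR3, the endosomal receptor, had 7.66 with miR-130a-3p, 7.08 to 9.02 with the other mimics and 8.32 with mimic NC. IFIH1 had 13.54 with miR-130a-3p, 13.41 to 14.52 with the other mimics and 13.96 with mimic NC, and RIGI had 12.95 with miR-130a-3p, 12.76 to 13.77 with the other mimics and 13.30 with mimic NC. Both cytosolic receptors lay inside the range of the other arrays. TLR7, a receptor of single-stranded RNA, was higher, with 9.26 with miR-130a-3p, 8.18 to 9.41 with the other mimics and 8.80 with mimic NC. Of 15 genes of class I presentation 14 were lower than with mimic NC, with a median of -0.24, and let-7d-3p gave 14 and -0.24 as well. All 15 were below the median of the other 4 mimics, where 49.5% of all genes were. That median includes let-7e-5p and miR-146a-5p, with which most of the list was higher. Against let-7d-3p alone 10 of the 15 were higher with miR-130a-3p, where 49.3% of all genes were. The miR-130a-3p array was the lowest of 6 for 3 of the 15, against 15.7% of all genes. TAP1, the peptide transporter, had 11.61 with miR-130a-3p, 11.41 to 12.59 with the other mimics and 12.03 with mimic NC. TAPBP, tapasin, had 14.09 with miR-130a-3p, 14.22 to 14.44 with the other mimics and 14.49 with mimic NC, and was the lowest of 6.

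**Figure D5:**
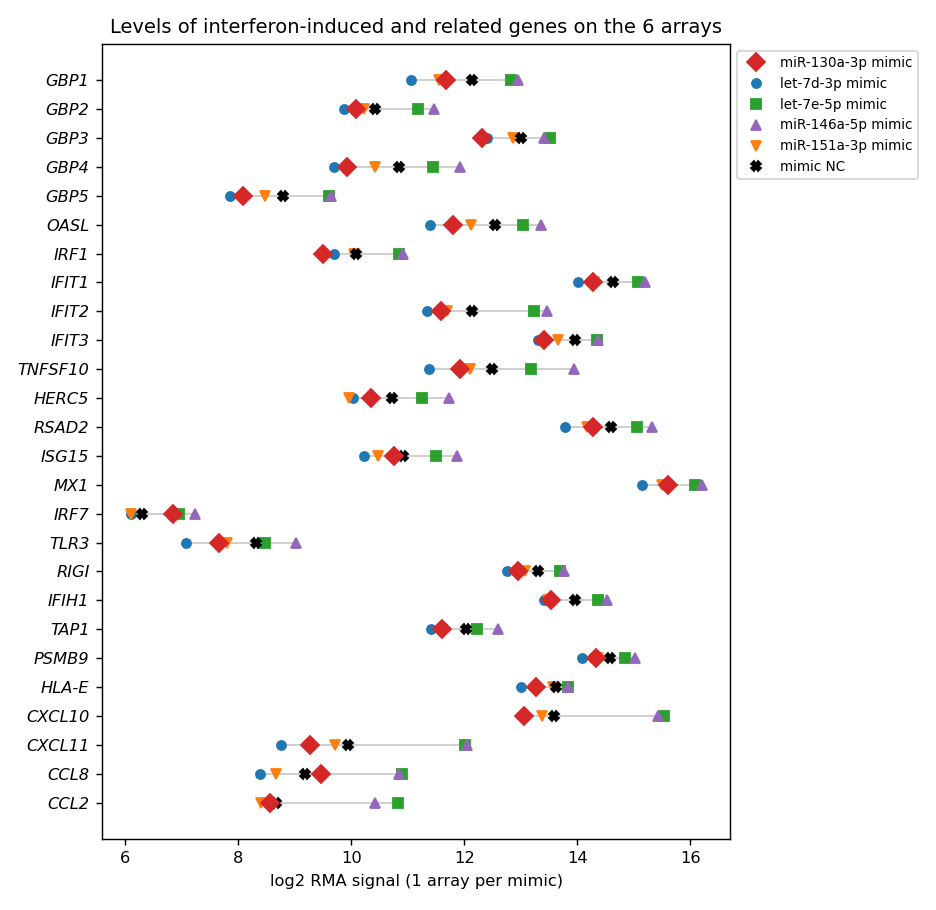
Log2 signals (x axis) of 26 interferon-induced and related genes, with 1 point per array. Red diamonds are the miR-130a-3p mimic and black crosses mimic NC. For most genes the let-7d-3p, miR-130a-3p and miR-151a-3p points lie left of mimic NC and the let-7e-5p and miR-146a-5p points right of it, as for GBP4 with 9.93 for miR-130a-3p and 10.84 for mimic NC.

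The ISRE was searched as GAAA, any 2 bases and GAAA on either strand. It was in 3.11% of all promoters, in 31 of 43 (72.1%) of interferon-stimulated genes and in 8 of 13 (61.5%) of class I presentation genes. The shares of these lists likewise say nothing of the mimic. Among genes at least 1.5-fold lower with miR-130a-3p 38 of 654 (5.81%) had it. Interferon-stimulated genes with the letters had a median difference from mimic NC of -0.26, and the 12 without had -0.205. The matches of members that were lower are shown in capitals with 10 bases on each side, on the strand of the gene. They began 4 bases before the start in GBP4 (chr1:89198927-89198956, minus strand), 2 bases after it in GBP3 (chr1:89022845-89022874, minus), 122 before it in IFIT3 (chr10:89327865-89327894, plus) and 187 before it in TNFSF10 (chr3:172523598-172523627, minus). IFIT3 had another match that began 156 bases before the start. OASL and GBP5 had no promoter entry.
GBP4: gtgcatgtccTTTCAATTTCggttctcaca
GBP3: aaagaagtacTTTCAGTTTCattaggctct
IFIT3: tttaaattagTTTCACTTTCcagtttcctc
TNFSF10: gaggagcttcTTTCAGTTTCcctcctttcc

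Chemokines and cytokines did not share a direction. Of 25 chemokines 15 were lower and 10 higher than with mimic NC (median -0.11). Of 22 inflammatory genes downstream of NF-kB 9 were lower and 13 higher (median 0.015). Since 49.8% of all genes were lower and 48.8% higher, these counts say little. CXCL11, a ligand of CXCR3 induced by interferon, had 9.28 with miR-130a-3p, 9.72 with miR-151a-3p, 12.05 with miR-146a-5p, 12.02 with let-7e-5p, 8.75 with let-7d-3p and 9.95 with mimic NC. It showed the arrays in 2 separate sets, with miR-130a-3p in the lower one together with mimic NC. The neutrophil attractant CXCL8 was higher, with 12.95 with miR-130a-3p, 12.10 to 13.19 with the other mimics and 12.38 with mimic NC. IRAK2, a kinase of Toll-like receptor signalling, was the lowest of the inflammatory genes, with 6.79 with miR-130a-3p, 8.17 with miR-151a-3p, 7.66 with miR-146a-5p, 7.56 with let-7e-5p, 7.36 with let-7d-3p and 7.54 with mimic NC. It was 1.68-fold lower than with mimic NC and 1.48-fold below the nearest array. IL1B, the cytokine interleukin-1 beta, had 16.58 with miR-130a-3p, 16.18 to 16.47 with the other mimics and 16.35 with mimic NC.

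Outside the lists, a few genes set the miR-130a-3p array apart from the other 5. PDZD11, an adaptor with a PDZ domain, had 9.97 with miR-130a-3p, 11.14 with miR-151a-3p, 11.14 with miR-146a-5p, 11.16 with let-7e-5p, 11.25 with let-7d-3p and 11.11 with mimic NC. The other arrays lay within 0.14 of each other and miR-130a-3p was 2.20-fold below the nearest. The same form, a close set of 5 arrays and miR-130a-3p below it, was seen for MAPK6, the atypical kinase ERK3, with 13.08 with miR-130a-3p, 13.82 to 13.95 with the other mimics and 13.88 with mimic NC. CPPED1, a phosphatase, had 11.04 with miR-130a-3p, 11.83 to 12.02 with the other mimics and 11.94 with mimic NC. IFT22, of intraflagellar transport, had 8.12 with miR-130a-3p, 8.86 to 9.0 with the other mimics and 8.91 with mimic NC. PHLDA3, a p53-induced inhibitor of AKT, had 6.99 with miR-130a-3p, 7.72 to 8.14 with the other mimics and 7.91 with mimic NC. RRAGD, a GTPase that signals amino acids to mTOR, had 12.07 with miR-130a-3p, 12.46 to 12.90 with the other mimics and 12.71 with mimic NC, a smaller gap of 1.31-fold.

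Above the other arrays, GPRIN1, a G protein-regulated inducer of neurite outgrowth, had 6.82 with miR-130a-3p and 5.60 to 5.89 with the other mimics, a gap of 1.91-fold. With mimic NC it had 5.39, not above background. CDCA7, a partner of a chromatin remodeller and an E2F-responsive gene, had 7.02 with miR-130a-3p, 5.96 to 6.16 with the other mimics and 5.89 with mimic NC. Its promoter also held the E2F letters, 65 bases before the start. CD320, the receptor for vitamin B12 bound to transcobalamin, had 8.0 with miR-130a-3p, 6.6 to 7.13 with the other mimics and 7.10 with mimic NC. ADORA2B, an adenosine receptor, had 8.22 with miR-130a-3p, 7.22 to 7.49 with the other mimics and 7.34 with mimic NC, and USP53, of the ubiquitin-specific protease family, had 11.38 with miR-130a-3p, 10.20 to 10.66 with the other mimics and 10.49 with mimic NC. The other 4 mimics and mimic NC lay within 0.27 of each other for CDCA7 and for ADORA2B. They were spread more widely for GPRIN1, USP53 and CD320, over 0.53 for CD320.

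Other genes with a high ratio to mimic NC were low on the control array and not high on that of miR-130a-3p alone. RFK, riboflavin kinase, had 10.57 with miR-130a-3p, 9.98 to 10.35 with the other mimics and 9.01 with mimic NC. It was 2.95-fold higher than with mimic NC, but only 1.16-fold above the nearest of the other arrays. LPAR3, a receptor of lysophosphatidic acid, had 7.26 with miR-130a-3p, 6.24 to 6.9 with the other mimics and 5.69 with mimic NC, 2.97-fold above mimic NC and 1.28-fold above the nearest array. PHKA1, a subunit of phosphorylase kinase, had 6.78 with miR-130a-3p, 6.25 to 6.56 with the other mimics and 5.52 with mimic NC. The chaperone PDIA4 and the centromere protein CENPX were picked after their values were seen. PDIA4 had 12.63 with miR-130a-3p, 12.25 to 12.44 with the other mimics and 11.55 with mimic NC, and CENPX had 7.97 with miR-130a-3p, 7.27 to 8.40 with the other mimics and 6.86 with mimic NC. Of the 15 genes with the lowest ratios, 13 had a signal with miR-130a-3p that was not above background, so that only DICER1 and TMEM54 among them were above background on both arrays.

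Of 22 macrophage markers 12 were higher and 9 were lower (median 0.02), and their median level was 13.405 with miR-130a-3p and 13.235 with mimic NC. FCGR1A, an Fc receptor, had 13.77 with miR-130a-3p, 13.17 to 13.46 with the other mimics and 13.25 with mimic NC, and the lipopolysaccharide receptor CD14 had 11.39 with miR-130a-3p, 10.68 to 11.54 with the other mimics and 10.89 with mimic NC. Of 12 markers of undifferentiated myeloid cells 5 were higher and 7 were lower (median -0.09), and 8 were above background with miR-130a-3p and 9 with mimic NC. For 6 of the 12 the miR-130a-3p array was the lowest of 6, against 15.7% of all genes, and it was below the median of the other 4 mimics for 9. KIT, the receptor of stem cell factor, was higher, with 6.39 with miR-130a-3p, 5.69 to 6.14 with the other mimics and 5.67 with mimic NC, while the granule protease gene PRTN3 was lower, with 9.84 with miR-130a-3p, 10.05 to 10.45 with the other mimics and 10.14 with mimic NC. The part of these markers in the levels of cell cycle genes was not tested. Of the markers of other cells, 5 of 13 for T and NK cells were above background with miR-130a-3p and 6 with mimic NC. For B cells 4 of 9 were with each, and for epithelial cells and fibroblasts 4 of 13 with each. Among all 17687 genes 11499 were above background with miR-130a-3p and 11536 with mimic NC. Among 23 housekeeping genes 12 were lower and 10 higher (median -0.01). With 49.8% of all genes lower and 48.8% higher, the directions of macrophage, myeloid and housekeeping genes say little.

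Signalling lists held single members that stood out. Of 24 genes of TGF-beta and BMP signalling 11 were higher and 13 lower (median -0.03), of 24 genes of TSC and mTOR signalling 12 were higher and 12 lower (median 0), and of 26 genes of early endosomes 10 were higher and 15 lower (median -0.03). Their lowest members were the reported targets ACVR1 and RAB5A and, in the mTOR list, RRAGD. Genes of p53 and apoptosis had 13 of 20 higher (median 0.09), genes of cholesterol and lipid 14 of 23 (median 0.04) and metallothioneins 6 of 10 (median 0.045). Of all genes 48.8% were higher, so these counts say little. Genes of the unfolded protein and integrated stress responses were higher than with mimic NC for 15 of 19, where 48.8% of all genes were, with a median of 0.15. The other mimics gave 12 to 14 of 19, with medians of 0.10 to 0.19, all against the same control array. ATF3, a stress-induced factor of that list, was lower, with 11.14 with miR-130a-3p, 11.93 with miR-151a-3p, 12.50 with miR-146a-5p, 12.38 with let-7e-5p, 11.77 with let-7d-3p and 12.01 with mimic NC.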

How the data were processed

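Total RNA of 6 THP-1 cultures, 1 per mimic, was hybridized to Clariom S human arrays (Affymetrix). The values deposited by the authors are log2 signals per probe set, to 2 decimals, made with RMA in Transcriptome Analysis Console 4.0 per the submitters' processing notes. RMA corrects background, normalizes between arrays and summarizes probes, and pulls the arrays to one distribution. Which arrays were normalized together is not given in the sources used here. The labels name Trizol for extraction, while the paper names an RNeasy kit. All 6 columns were used.

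Of the probe sets 17709 (82.6%) carried 1 gene symbol, 3739 carried none, and all 17709 matched RefSeq genes. They gave 17687 genes, 20 of them averaged over several probe sets. Differences are log2 signal with miR-130a-3p minus mimic NC. A fold against an array at or under background (5.39) was taken against background and given as "at least". With 1 array per group no test was possible.

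The 28 gene lists and the choice of genes were made with earlier results of these data known. Named genes were the 15 highest and 15 lowest differences, the 10 largest gaps to the other 5 arrays in each direction, the 3 members of each list at either end, every reported target, licensing and S phase entry gene, and 8 innate immune genes. The text names a selection, and the cell type markers and a few list members (AGO2, DDX6, DNMT1, RRM2, CDC20, MX1, IFI6, IFIT3, TNFSF10) were picked after their values were seen. Alternatives were another comparator, filter, threshold, pseudocount of 32, repeated quantile normalization, removal of a lowess trend (span 0.3) and, for the lists, subtraction of the median difference. The code for counts and gaps was checked on simulated data with known differences, which says nothing of chance in the arrays. Python 3.11.15, pandas 2.3.3 and statsmodels 0.14.6 were used.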

Additional observations from a re-analysis of the deposited data

How the results depend on the processing

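The number of probe sets at a threshold depended on the settings. The 131 that were 2-fold higher with miR-130a-3p than with mimic NC became 40 where both arrays had to exceed background, 11 with a pseudocount of 32, 30 against the median of the other 4 mimics, 975 at 1.5-fold and 2 at 3-fold. The 136 that were lower became 18, 8, 36, 1022 and 4 under the same settings. The 30 that were highest of 6 by 1.5-fold became 14 with the pseudocount and 0 at 2-fold, and the 38 that were lowest became 18 and 1. The filter, the pseudocount and the fold by their construction leave out dim probe sets, shrink their differences or move the threshold. For the other comparator, which replaces the control array, the cause was not tested. For the 11 gene lists all 55 alternatives kept the direction and stayed within 1.5 times the count. For each list 1 of these subtracted the median difference of all probe sets. That median was 0, so this alternative could not differ from the main result. The band of 1.5 times is also wide. RNA sensing passed it with 9 of 15 genes lower than the median of the other 4 mimics, and 12 lower than mimic NC. Of the differences of 125 genes in the text, 10 moved by over 1.5-fold and 14 turned sign against the median of the other 4 mimics (MET to -0.805 and CCND3 to -0.38), 2 turned sign after repeated quantile normalization and 1 moved by over 1.5-fold with the pseudocount. No paired analysis was possible because there was only 1 array for each mimic, and for the same reason no replicate could be left out. Differences of dim genes are limited by signal over background, and RMA compresses them.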
